A study of Mus musculus with 6 samples.

Results

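The genes described here are 32 enzymes and regulators of cholesterol and fatty acid synthesis, listed by name for their place in these pathways. The list was chosen with earlier results of these data known, so it was not blind to their response. They comprise 18 enzymes of sterol synthesis, 7 enzymes of fatty acid synthesis, and 7 regulators or known targets of the sterol regulatory element-binding proteins (SREBPs). Of these, 25 had a named probe detected on at least 1 array, out of 9192 genes tested. The remaining 7 (Acat2, Hmgcs1, Idi1, Fdft1, Tm7sf2, Acaca and Fasn) had no named probe among those kept and were not analysed here.

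Transcripts were measured in TC-1/A9 cells, an MHC class I-deficient mouse tumour line of C57BL/6 background. The line goes back to lung cells transformed with an activated Ha-ras and the E6/E7 oncogenes of HPV16, and was taken from TC-1 tumours that grew in immunised mice. Treated cells received 3 μM 5-2´-deoxyazacytidine (DAC), which inhibits DNA methyltransferases, for 48 h and then 30 ng/ml Trichostatin A (TSA), a histone deacetylase inhibitor, for 24 h, whereas control cells were left untreated. Each group had 3 biological replicates of the same line, with 1 Illumina array each, and the shares of DAC and TSA in a difference cannot be told apart.

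Cholesterol is built from acetyl-CoA through mevalonate, farnesyl diphosphate and squalene, and the ring that forms from squalene is then trimmed and rearranged step by step. Fatty acids are built from the same acetyl-CoA, which ATP citrate lyase supplies in the cytosol, and are then elongated and desaturated. When sterols in the endoplasmic reticulum run low, the escort protein SCAP carries SREBPs to the Golgi, where proteases free the part that enters the nucleus and switches on these genes. INSIG proteins hold SCAP and SREBPs back when sterols are plentiful. SREBP-2, from Srebf2, acts mainly on cholesterol genes, and SREBP-1, from Srebf1, mainly on fatty acid genes.

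The numbers of detected probes were 14704 to 14802 on untreated and 15008 to 15783 on DAC/TSA arrays. Within a group, any 2 arrays gave r = 0.992 or more over the log2 signals of the kept probes. Of 5 epithelial markers, 3 had a kept named probe, and their summed signal was 152 to 168 on untreated and 650 to 806 on treated arrays. Krt8 rose by 6.30-fold. Krt18 and Krt19 were not above background on any untreated array and rose by at least 3.46-fold and 1.09-fold. Epcam and Cdh1 had no kept named probe, and of 5 lung epithelial markers only Aqp5 had 1, at 214 to 216 on untreated and 879 to 964 on treated arrays. Of 5 immune markers only Lyz2 had 1, which was not above background in untreated cells and was called higher, by at least 1.06-fold. The 3 measured mesenchymal markers (Vim, Col1a1 and Fn1) were detected on all arrays, with a summed signal of 14346 to 14387 in untreated and 8608 to 9669 in treated cells. None of 5 adipocyte and liver markers had a kept named probe. Of 7 measured reference genes, Gapdh fell by 1.57-fold, Rplp0 rose by 1.47-fold and 5 did not pass. These shifts accompany all results below, and their part in them was not tested. A lower level in every cell and a strong loss in some of the cells cannot be told apart in these pooled extracts.

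Most of the measured cholesterol and fatty acid synthesis genes that responded to DAC/TSA were downregulated. Of the 25 genes, 14 were lower, 2 were higher and 9 did not pass the test (limma, Benjamini-Hochberg adjusted p below 0.01 over all kept probes). The 14 lower genes made up 56% of those measured, and over all genes tested 21.4% were called lower and 22.5% higher. Elovl6, Fdps, Srebf2, Nsdhl and Vldlr, 5 of the 25 genes (20%), fell at least 2-fold, where 3.8% of all genes fell that far. No member rose at least 2-fold, against 3.97% of all genes. The median log2 difference, DAC/TSA minus untreated, was -0.58 for the 25 genes and 0.01 for all genes tested. In 22 of the 25 genes the 3 treated arrays did not overlap with the 3 untreated ones, as in 63.9% of all genes.

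**Figure D1:**
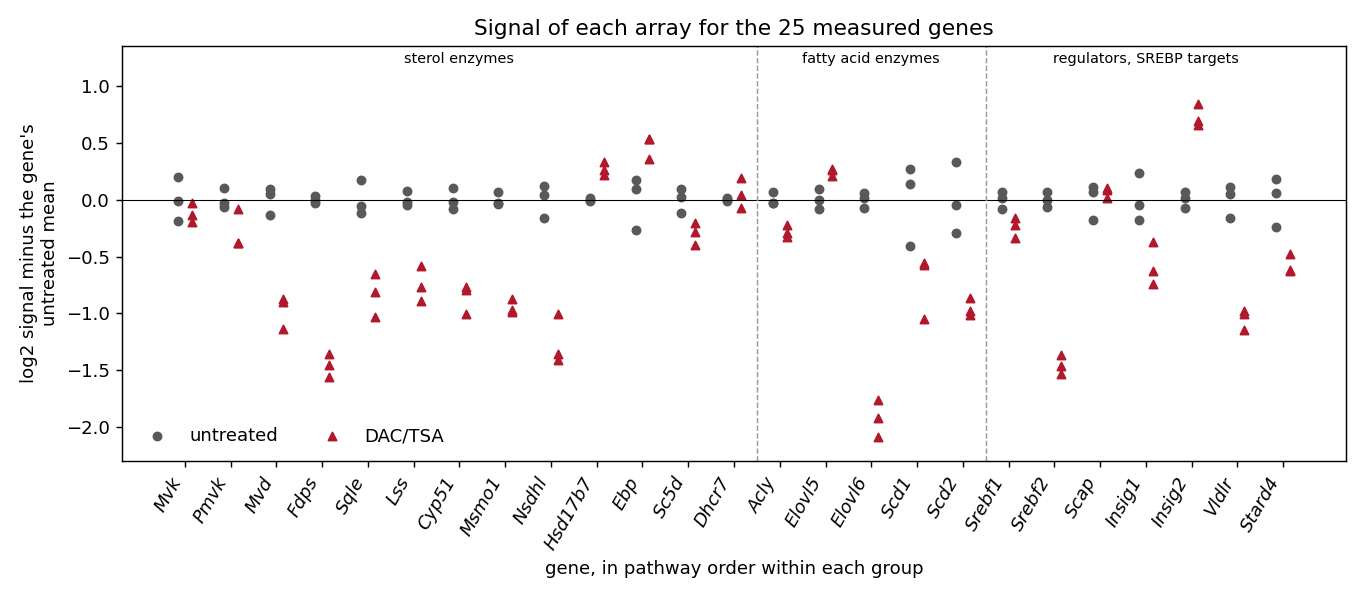
Log2 signal of every array minus the mean of the 3 untreated arrays of that gene, for the 25 measured genes (grey circles, untreated; red triangles, DAC/TSA). Treated arrays lie below untreated ones without overlap for genes such as Fdps, Nsdhl, Elovl6, Srebf2 and Vldlr, and above them for Insig2 and Ebp.

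Of the sterol synthesis enzymes, 13 were measured. Of these, 7 were lower, 1 was higher and 5 did not pass, and the median log2 difference was -0.75. In the order of the pathway, all 6 measured genes from Fdps to Nsdhl were lower, while none of the 4 listed after Nsdhl (Hsd17b7, Ebp, Sc5d and Dhcr7) passed as lower, although Sc5d did under some alternatives. Among the steps up to squalene 2 of 4 measured genes were lower, with a median of -0.63, and among the later steps 5 of 9 were lower and 1 was higher, with a median of -0.75. The difference between these stages was not tested.

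The farnesyl diphosphate synthase gene Fdps, which makes the precursor shared by sterols and protein prenyl groups, had log2 signals of 12.50, 12.54 and 12.48 on untreated and 11.15, 11.05 and 10.94 on treated arrays. All treated arrays lay well below all untreated ones. The decrease was 2.75-fold (95% confidence interval 2.42 to 3.12; limma adjusted p = 4.3e-07). Its other probe, which was not above background on any treated array, was also called lower, by at least 1.27-fold.

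Upstream of Fdps, the mevalonate diphosphate decarboxylase gene Mvd gave 8.41, 8.18 and 8.37 in untreated and 7.45, 7.19 and 7.42 in treated cells. Its groups were apart by more than their spread, and the decrease was 1.96-fold (1.68 to 2.29; limma adjusted p = 2.37e-05). The 2 kinases that act before it did not pass. The mevalonate kinase gene Mvk differed by -0.12 ± 0.11 on the log2 scale (SE; limma adjusted p = 0.369), with overlapping groups. The phosphomevalonate kinase gene Pmvk differed by -0.28 ± 0.10 (limma adjusted p = 0.0392), with no overlap, and passed with the replicate number as a block (limma adjusted p = 0.00461).

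The genes that act on squalene and lanosterol were lower. The squalene epoxidase gene Sqle, a rate-limiting step after the mevalonate stage, had log2 signals of 11.17, 10.95 and 10.89 in untreated and 10.35, 10.19 and 9.97 in treated cells, and its decrease was 1.78-fold (1.49 to 2.13). Its second probe fell by 1.40-fold. The lanosterol synthase gene Lss, which closes the ring, fell by 1.68-fold (1.45 to 1.94), but did not pass once the arrays were scaled to their medians (log2 difference -0.66, limma adjusted p = 0.0268). The lanosterol demethylase gene Cyp51 fell by 1.81-fold (1.56 to 2.09). For both genes the groups did not overlap.

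Of the 3 measured enzymes that then remove methyl groups from the ring, Msmo1 and Nsdhl were lower and Hsd17b7 was not. The methylsterol monooxygenase gene Msmo1 gave 10.94, 10.93 and 11.04 in untreated and 10.01, 10.10 and 9.99 in treated cells. Arrays within a group differed by at most 0.11, and the decrease was 1.92-fold (1.70 to 2.17; limma adjusted p = 6.3e-06). Nsdhl, a sterol dehydrogenase that works with it, gave 8.08, 7.80 and 8.0 in untreated and 6.95, 6.60 and 6.55 in treated cells. Its treated arrays lay at least 0.85 below the untreated ones, and it fell by 2.39-fold (1.99 to 2.88; limma adjusted p = 1.31e-05). All 4 probes of Nsdhl were called lower, with log2 differences of -1.26, -0.99, -0.90 and -0.58.

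Ebp was the only sterol enzyme called higher. Ebp, the sterol isomerase that shifts the ring double bond, gave 8.38, 8.73 and 8.81 in untreated and 9.0, 9.17 and 9.18 in treated cells. The treated arrays lay above the untreated ones by as little as 0.19, and the increase was 1.39-fold (1.16 to 1.67; limma adjusted p = 0.00655). This call was lost with median scaling (limma adjusted p = 0.115), with neqc background correction (0.0145) and without untreated array 2 (0.0109), DAC/TSA array 2 (0.0306) or DAC/TSA array 3 (0.0277). Hsd17b7, the ketosteroid reductase of the demethylation steps, differed by 0.27 ± 0.08 (SE; limma adjusted p = 0.0133) on its brighter probe. It passed as higher in 5 of 17 alternatives, among them the replicate number as a block (limma adjusted p = 0.00481). Its other probe was called higher, by at least 1.06-fold from a level not above background in untreated cells.

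The desaturase gene Sc5d and the reductase gene Dhcr7 encode the final enzymes of 1 branch of the pathway. Sc5d was not above background on any treated array or on 1 untreated array, so that only a bound can be given, at least 1.05-fold lower, and it did not pass (limma adjusted p = 0.0187). It passed as lower with the replicate number as a block (limma adjusted p = 0.00308), with array weights (0.00316), without untreated array 1 (0.00588) and with both arrays numbered 1 left out (0.00546). Dhcr7 gave 6.60, 6.63 and 6.62 in untreated and 6.54, 6.80 and 6.66 in treated cells. Its groups overlapped, and its log2 difference of 0.05 ± 0.09 (limma adjusted p = 0.652) turned to -0.02 without DAC/TSA array 2.

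**Figure D2:**
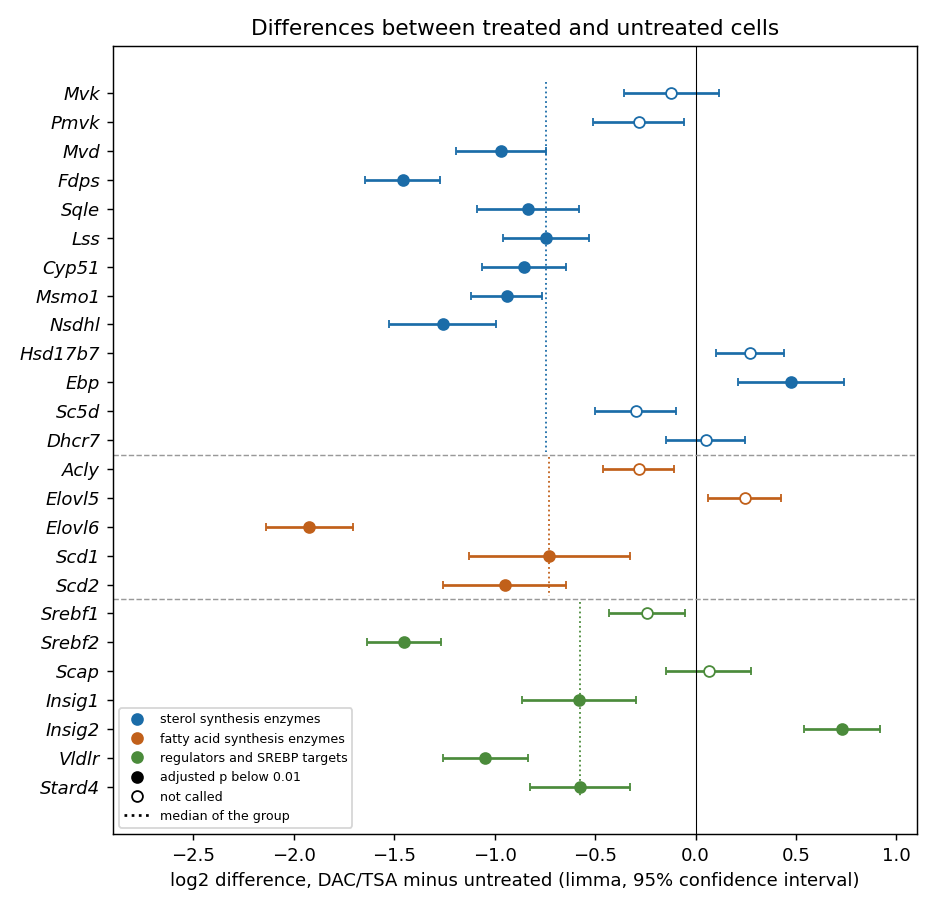
Log2 difference between DAC/TSA-treated and untreated cells for each measured gene, with 95% confidence intervals from limma; filled points passed at an adjusted p below 0.01, and dotted lines mark the group medians. Sterol enzymes from Fdps to Nsdhl lie between -1.46 and -0.75, Elovl6 lies lowest at -1.92, and Ebp and Insig2 are the filled points above 0.

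Promoter sequences of the members were then examined. RefSeq windows of 300 bases (250 before to 50 after the start of transcription, GRCm38.p6) were found for 26 of the 32 listed genes, 35 windows in all, and not for Fdps, Sqle, Fdft1, Scd1, Scd2 and Stard4. They were searched on both strands for CCAAT, the box bound by NF-Y, for GGGCGG, the GC box bound by Sp1 factors, and for TCACNCCAC, a core of the sterol regulatory element bound by SREBPs. CCAAT stood in 23 member windows (65.7%) against 37.4% of all promoters, and GGGCGG in 25 (71.4%) against 35.7%. TCACNCCAC stood in 1 window (2.86%), that of Hmgcs1, which was not measured, against 1.24% of all. Member windows held a median of 20 CG dinucleotides against 7 over all promoters, so that they differed from other promoters in CG count as well. Among measured members, CCAAT was found for 8 of 9 genes called lower (88.9%) and 10 of the 11 others (90.9%), and GGGCGG for 8 of 9 (88.9%) and 9 of 11 (81.8%). Counted by window, CCAAT stood in 80.0% of the windows of genes called lower and 57.9% of those of the others. GGGCGG stood in 80.0% and 68.4%, so that the comparison depends on the unit counted. The 10 windows of the genes called lower held a median of 25.5 CG and the 19 windows of the others 17, where several of the others have more than 1 start. A match is a run of letters, and binding was not measured.

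The windows of Mvd, Msmo1 and Nsdhl are shown as examples of sterol genes that fell, and that of Ebp as the sterol gene that rose. Capitals mark the motif matches, with ATTGG and CCGCCC as CCAAT and GGGCGG read on the other strand.
Mvd, chr8:122443373-122443672, minus strand: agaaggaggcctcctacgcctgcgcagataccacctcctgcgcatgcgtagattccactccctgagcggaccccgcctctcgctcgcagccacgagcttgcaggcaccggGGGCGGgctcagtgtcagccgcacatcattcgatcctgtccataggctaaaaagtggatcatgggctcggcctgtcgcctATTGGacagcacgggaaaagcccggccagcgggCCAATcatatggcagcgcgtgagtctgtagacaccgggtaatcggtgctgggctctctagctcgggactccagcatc
Msmo1, chr8:64733529-64733828, minus strand: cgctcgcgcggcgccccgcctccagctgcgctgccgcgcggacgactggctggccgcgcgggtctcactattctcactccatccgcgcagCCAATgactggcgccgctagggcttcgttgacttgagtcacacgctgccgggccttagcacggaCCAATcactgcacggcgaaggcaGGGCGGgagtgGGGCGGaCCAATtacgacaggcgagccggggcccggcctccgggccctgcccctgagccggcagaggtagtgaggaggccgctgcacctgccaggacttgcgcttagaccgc
Nsdhl, chrX:72918271-72918570, plus strand: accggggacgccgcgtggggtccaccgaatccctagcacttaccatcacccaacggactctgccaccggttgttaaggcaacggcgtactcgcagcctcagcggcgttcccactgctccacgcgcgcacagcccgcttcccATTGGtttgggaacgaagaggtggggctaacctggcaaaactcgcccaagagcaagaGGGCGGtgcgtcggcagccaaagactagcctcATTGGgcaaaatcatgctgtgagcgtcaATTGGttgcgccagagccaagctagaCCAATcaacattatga
Ebp, chrX:8193463-8193762, minus strand: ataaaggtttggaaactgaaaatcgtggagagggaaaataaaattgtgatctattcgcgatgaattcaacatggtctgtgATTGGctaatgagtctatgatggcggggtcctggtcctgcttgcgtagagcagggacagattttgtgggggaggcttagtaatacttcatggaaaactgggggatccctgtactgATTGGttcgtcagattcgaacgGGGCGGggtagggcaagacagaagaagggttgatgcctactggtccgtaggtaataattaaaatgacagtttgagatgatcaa
Mvd held 2 CCAAT boxes and 1 GC box with 23 CG, Msmo1 held 3 and 2 with 35 CG, and Nsdhl held 4 and 1 with 23 CG. Ebp, which rose, held 2 CCAAT boxes and 1 GC box as Mvd did, with 10 CG. These windows are examples, and CG counts overlapped between the calls. Sc5d and Hsd17b7, which were not called, held 36 and 27 CG, and Elovl6, which fell most, held 14 and no match. The medians were 25.5 CG for genes called lower and 17 for the others.

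The steepest decrease of all members was that of 1 fatty acid synthesis gene, Elovl6. Of 5 measured fatty acid synthesis enzymes, 3 were lower (60%), none was higher and 2 did not pass. Their median log2 difference was -0.73, near the -0.75 of the sterol enzymes. Elovl6, which elongates palmitate and other saturated and monounsaturated chains, gave 8.43, 8.47 and 8.34 in untreated and 6.50, 6.65 and 6.33 in treated cells. Every treated array lay at least 1.69 below every untreated one, and the decrease was 3.79-fold (3.26 to 4.40; limma adjusted p = 2.09e-07).

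Both measured stearoyl-CoA desaturase genes, which place the double bond of oleate and palmitoleate, were lower. Scd2 gave 7.67, 7.05 and 7.29 in untreated and 6.33, 6.36 and 6.47 in treated cells, with a wide spread among untreated arrays, and fell by 1.93-fold (1.56 to 2.39; limma adjusted p = 0.000239). Scd1 gave 9.17, 9.71 and 9.85 in untreated and 8.52, 9.01 and 9.0 in treated cells, and fell by 1.66-fold (1.25 to 2.19; limma adjusted p = 0.00661). In both groups array 1 was the lowest for Scd1, and the gap between the groups was only 0.15. The call of Scd1 was lost with median scaling (limma adjusted p = 0.139) and with neqc (0.0151). It was lost as well without untreated array 2 (0.0242), untreated array 3 (0.0289), or DAC/TSA array 1 (0.0206), 2 (0.0125) or 3 (0.0114), with log2 differences between -0.81 and -0.57.

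Acly, the ATP citrate lyase at the entry to both pathways, gave 12.04, 11.94 and 11.94 in untreated and 11.75, 11.67 and 11.65 in treated cells. The groups did not overlap, but the log2 difference of -0.28 ± 0.08 missed the threshold (limma adjusted p = 0.0122). It passed as lower in 7 of 17 alternatives, among them the replicate number as a block (limma adjusted p = 0.00344). Elovl5, which elongates polyunsaturated chains, gave 11.19, 11.10 and 11.02 in untreated and 11.36, 11.38 and 11.31 in treated cells, in the direction opposite to Elovl6. Its difference of 0.24 ± 0.08 did not pass (limma adjusted p = 0.0277) except with the replicate block (0.00924), with array quality weights (0.00396) and without both arrays numbered 1 (0.00832).

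Among the regulators, the genes of the SREBP system did not move as 1 group. Of 7 measured regulators and SREBP targets, 4 were lower (57.1%), 1 was higher and 2 did not pass, with a median log2 difference of -0.57. Srebf2, which encodes the SREBP of the cholesterol pathway, gave 9.65, 9.77 and 9.71 in untreated and 8.25, 8.18 and 8.34 in treated cells. The groups were 1.31 apart at their nearest arrays, and the decrease was 2.74-fold (2.41 to 3.11; limma adjusted p = 4.23e-07). Its second probe fell by 1.89-fold (1.62 to 2.20). Srebf1 gave 6.57, 6.47 and 6.62 in untreated and 6.39, 6.33 and 6.22 in treated cells, a difference of -0.24 ± 0.09 that did not pass (limma adjusted p = 0.0354). The interval of the Srebf1 difference was -0.43 to -0.05 and that of Srebf2 -1.64 to -1.27. The files used here do not separate the transcript forms of Srebf1.

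The INSIG genes moved in opposite directions. Insig1, itself a known SREBP target, gave 8.68, 8.26 and 8.39 in untreated and 8.07, 7.82 and 7.70 in treated cells, and fell by 1.49-fold (1.23 to 1.82; limma adjusted p = 0.00327). A second Insig1 probe fell by 1.42-fold, and the last differed by -0.29 and did not pass. The Insig1 call was lost without DAC/TSA array 2 (limma adjusted p = 0.0167) or 3 (0.0171). Insig2, which has the same retention role, gave 9.0, 8.95 and 8.87 in untreated and 9.78, 9.63 and 9.60 in treated cells. All treated arrays lay above all untreated ones, and the increase was 1.66-fold (1.45 to 1.89; limma adjusted p = 5.59e-05). Its other probe rose by 1.91-fold (1.65 to 2.21).

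Scap, the escort of SREBPs, was read differently by its probes. On the brighter probe the arrays gave 6.78, 7.02 and 7.07 in untreated and 7.04, 6.97 and 7.06 in treated cells, with overlapping groups and a difference of 0.07 ± 0.10 (limma adjusted p = 0.582). On the other probe they gave 6.99, 6.75 and 6.61 in untreated and 6.12, 6.09 and 6.09 in treated cells, a 1.61-fold decrease (1.37 to 1.88; limma adjusted p = 0.000276). With the mean of both probes Scap was called lower (log2 difference -0.31, limma adjusted p = 0.00325), so that no direction is given for this gene.

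**Figure D3:**
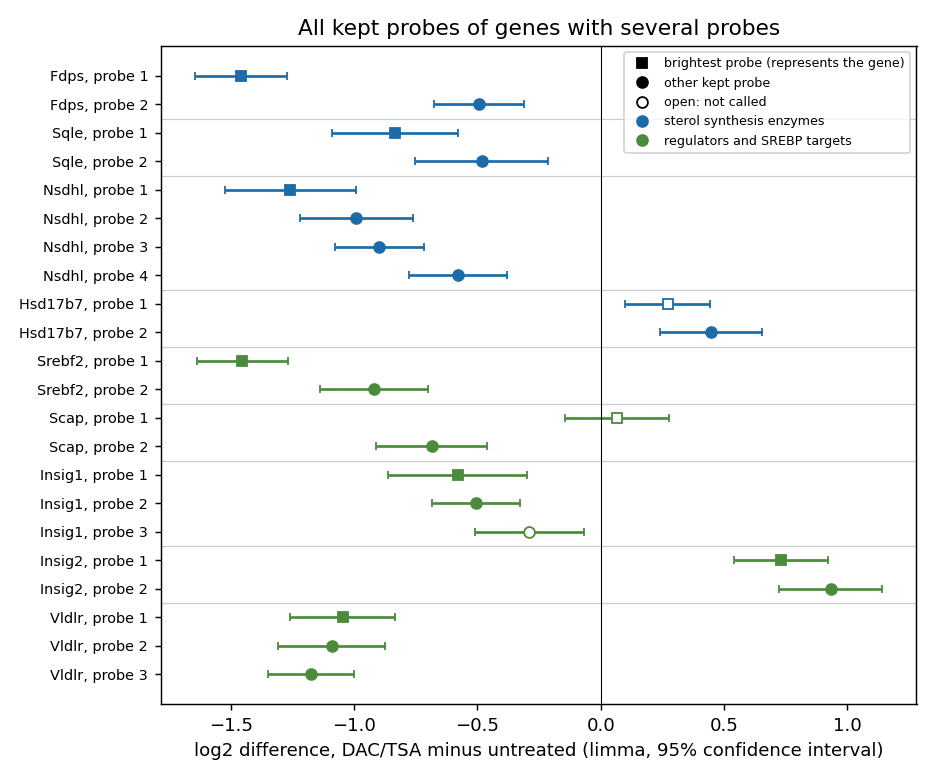
Log2 difference between DAC/TSA-treated and untreated cells for every kept probe of the 9 members with several probes, with 95% confidence intervals from limma (squares, the brightest probe, used for the gene; circles, other probes; open symbols, not called). Probes of 1 gene lie on the same side of 0 except for Scap, where 1 probe lies at 0.07 and the other at -0.69.

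The lipid uptake and transfer genes of the group were lower. Vldlr, a receptor for triglyceride-rich lipoproteins, gave 10.10, 10.37 and 10.31 in untreated and 9.12, 9.28 and 9.26 in treated cells, and fell by 2.06-fold (1.78 to 2.39; limma adjusted p = 1e-05). Its other 2 probes fell by 2.13-fold and 2.26-fold, so that all 3 gave nearly the same size. Stard4, a cytosolic cholesterol transfer protein, gave 7.24, 7.54 and 7.66 in untreated and 6.85, 6.85 and 7.0 in treated cells, and fell by 1.49-fold (1.25 to 1.77; limma adjusted p = 0.0016). The Stard4 call was lost with median scaling (log2 difference -0.47, limma adjusted p = 0.107).

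The promoter windows of Srebf2 and Insig2 are shown because these regulators gave the steepest decrease and the only called increase of their group. For Insig2 2 of its 3 annotated starts are printed, those with the most and the fewest CG.
Srebf2, chr15:82147019-82147318, plus strand: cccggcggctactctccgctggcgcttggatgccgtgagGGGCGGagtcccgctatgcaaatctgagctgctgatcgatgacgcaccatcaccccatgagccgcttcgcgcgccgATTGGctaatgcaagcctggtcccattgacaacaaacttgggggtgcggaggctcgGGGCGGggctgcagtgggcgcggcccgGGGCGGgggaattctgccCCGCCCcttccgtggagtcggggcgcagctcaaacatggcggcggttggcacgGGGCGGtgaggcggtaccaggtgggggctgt
Insig2, start with most CG, chr1:121327629-121327928, minus strand: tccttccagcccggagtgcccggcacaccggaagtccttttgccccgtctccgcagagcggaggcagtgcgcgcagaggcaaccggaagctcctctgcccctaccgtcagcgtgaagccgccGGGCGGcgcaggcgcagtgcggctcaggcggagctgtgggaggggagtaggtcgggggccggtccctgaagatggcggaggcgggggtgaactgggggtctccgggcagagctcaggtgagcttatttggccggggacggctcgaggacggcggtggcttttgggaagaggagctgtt
Insig2, start with fewest CG, chr1:121332540-121332839, minus strand: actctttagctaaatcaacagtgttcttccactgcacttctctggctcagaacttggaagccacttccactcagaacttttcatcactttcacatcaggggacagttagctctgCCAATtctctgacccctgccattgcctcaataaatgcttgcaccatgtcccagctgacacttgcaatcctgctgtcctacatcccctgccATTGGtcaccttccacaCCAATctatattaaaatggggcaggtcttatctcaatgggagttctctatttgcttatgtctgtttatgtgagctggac
Srebf2 held 1 CCAAT and 5 GGGCGG matches with 30 CG. The first Insig2 window held 1 GGGCGG and no CCAAT with 28 CG, and the second held 3 CCAAT and no GGGCGG with 0 CG. Which start is used in TC-1/A9 cells was not measured.

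Further lists of pathway genes are read against the same shares of all genes, 21.4% lower and 22.5% higher. Of 8 measured enzymes of sterol side branches and isoprenoid use, 2 were lower and 1 was higher, with a median log2 difference of 0.01 (-0.0050 with a gene not above background in untreated cells at its bound). The farnesyltransferase subunit gene Fntb fell by 1.32-fold, whereas Nus1, a subunit of the enzyme that makes dolichol precursors, rose by 1.73-fold. The Fntb call was lost with median scaling (limma adjusted p = 0.0738) and neqc (0.0116), and without untreated array 2 (limma adjusted p = 0.0134), DAC/TSA array 2 (0.0261) or DAC/TSA array 3 (0.0216). The prenylcysteine methyltransferase gene Icmt fell by 1.65-fold on its brightest probe, but the mean of its probes gave a log2 difference of 0.07 (limma adjusted p = 0.462), so that no direction is given for it.

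Of 17 other fatty acid enzymes, 6 were lower and 4 were higher, with a median of -0.01. The hydroxyacyl-CoA dehydratase gene Hacd1 fell by 2.36-fold (2.05 to 2.71), while Hacd3, of the same family, rose by 1.87-fold (1.66 to 2.11). Elovl4, which makes very long chains, rose by 2.17-fold (1.88 to 2.49), and Acss2, which makes acetyl-CoA from acetate, rose by 2.04-fold (1.79 to 2.33). The log2 difference of Acss2 was 1.03 on its brightest probe and 0.73 with the mean of its probes (limma adjusted p = 1.98e-05). The desaturases of polyunsaturated chains Fads1 and Fads2, named after their values were seen, fell by 1.74-fold and 1.49-fold, and the Fads2 call was lost with median scaling (limma adjusted p = 0.0135). Fads3 of the same family differed by -0.0088 (limma adjusted p = 0.942).

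The list of genes that process SREBPs or degrade pathway proteins gave 1 decrease and 2 increases among 10 measured, with a median of -0.15. This list also held the nuclear receptor gene Ppard, which was not called (log2 difference -0.05). The membrane ubiquitin ligase gene Rnf145 fell by 2.20-fold (1.77 to 2.75). Mbtps2, the Golgi protease that makes the second cut of SREBPs, rose by 1.34-fold, and Erlin1 rose by 1.27-fold. The Mbtps2 call was lost without untreated array 2 (limma adjusted p = 0.0174) or DAC/TSA array 2 (0.0207) or 3 (0.0185), and that of Erlin1 without untreated array 2 or 3 or any 1 of the DAC/TSA arrays (highest limma adjusted p = 0.0177). With median scaling of the arrays, the limma adjusted p was 0.0107 for Rnf145, 0.0385 for Mbtps2 and 0.0567 for Erlin1.

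Of 11 measured genes for cholesterol uptake, transport and storage, 1 was lower and 1 higher, with a median of -0.10. The endocytic receptor gene Lrp1 fell by 1.48-fold and the sterol transfer gene Gramd1b rose by 1.42-fold. Lrp1 was above background on only 1 treated array, and its call was lost without untreated array 3 (limma adjusted p = 0.0134) or DAC/TSA array 1 (0.0202) or 3 (0.0289). With median scaling neither Lrp1 (limma adjusted p = 0.0696) nor Gramd1b (0.016) passed, and Gramd1b did not pass with the mean of its probes (log2 difference 0.08, limma adjusted p = 0.312). Of 4 measured genes of the LXR system, Rxra, the partner of LXR, fell by 1.73-fold, and Nr1h3, which encodes the sterol-sensing factor LXRα, rose by at least 1.07-fold from a level not above background.

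**Figure D4:**
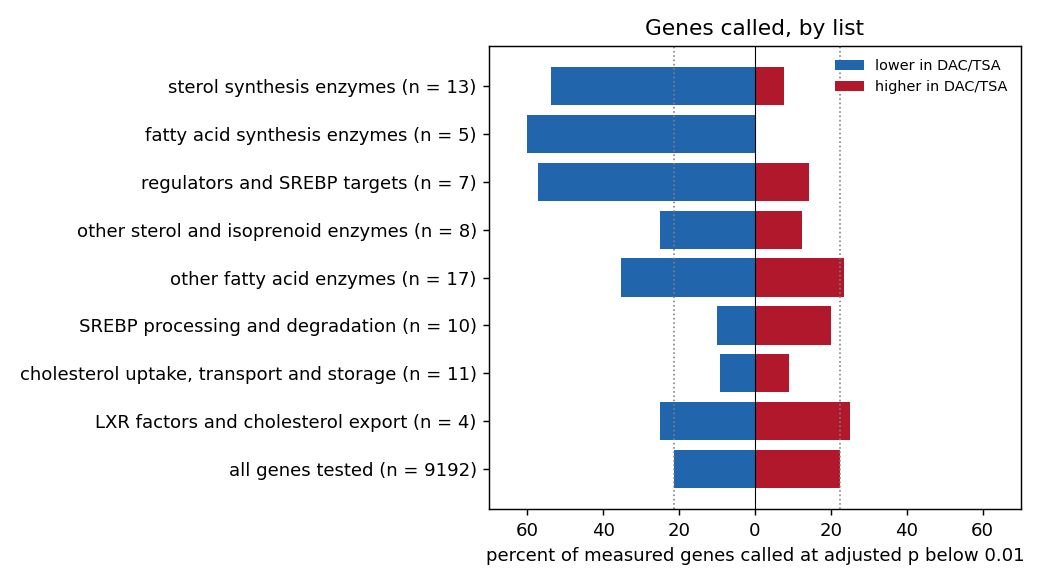
Percent of the measured genes of each list that were called lower (blue, left) or higher (red, right) at an adjusted p below 0.01, with the shares over all 9192 genes as dotted lines. The 3 member groups have 53.8%, 60% and 57.1% lower against 21.4% of all genes, and the further lists have 9.09% to 35.3% lower.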

How the data were processed

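Per the file headers and the study's methods, RNA of 6 cultures was read on Illumina Mouse WG6 bead chips and extracted with BeadStudio. The authors deposited linear signal intensity per probe, neither normalised nor background-corrected, with a detection p-value beside each signal. They also deposited log2 values of 16148 probes, quantile-normalised with lumi and limma in R, and these differed from the values used here by at most 0.0125. The array numbers limit precision, and no scan batch is given in the sources used here.

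The 45281 probe intensities were quantile-normalised and put on the log2 scale. Probes that any array detected at the 0.01 level were kept (17445), of which 13943 carried 1 gene symbol, 7 several and 3495 none. Symbols were matched by Entrez identifier to RefSeq genes of GRCm38.p6. Each gene was read on its kept probe of highest mean signal over all arrays.

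DAC/TSA was compared with untreated by limma 3.58.1 (R 4.3.3), with Benjamini-Hochberg adjustment over all kept probes and a threshold of 0.01. The fit was tested on simulated data. Errors of differences are standard errors, and intervals are at 95%. A probe with a detection p above 0.01 on every array of a group has only a bound there, computed against the lowest detected signal of each array and written as "at least". Levels are compared within a probe only. Promoter windows were taken from RefSeq.

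The titles number the arrays 1 to 3 in each group. Arrays of the same number deviated together from their group means (r = 0.633, 0.244 and 0.361 over probes). A fit with the numbers as pairs was therefore run as an alternative, on the evidence of the data and not of the labels. Crossed arrays 2 and 3 correlated at 0.367 and 0.379, so that the data set only the arrays numbered 1 apart. The main fit has no block, a term that the study's methods do not mention, and the blocked value stands beside a result where it changed the call.

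Alternatives were median scaling, neqc, normexp with an offset of 50, no filter, a stricter filter, the mean over a gene's probes, the number as a replicate block, the deposited log2 values, array weights, a variance trend and leaving out each array. The members and lists were chosen with earlier results of these data known. All measured members are named, and of each further list up to 4 called genes with the greatest difference, with the Fads genes added after their values were seen.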

Additional observations from a re-analysis of the deposited data

How the results depend on the processing

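Over 17 alternatives, 11 of the 16 called members kept their call and direction in every one: Mvd, Fdps, Sqle, Cyp51, Msmo1, Nsdhl, Elovl6, Scd2, Srebf2, Insig2 and Vldlr. Calls of Lss, Ebp, Scd1, Insig1 and Stard4 were lost under some. Among members, signs turned for Dhcr7 and Scap. Without any single array, Dhcr7 ranged from -0.016 to 0.12 and Scap from -0.023 to 0.12. Scap was at -0.31 with the mean of its probes, at -0.0099 with array weights and at -0.033 when both arrays numbered 1 were left out, a setting chosen after seeing the data. Among the further genes, Icmt turned to 0.066 with the mean of its probes. The cause was not tested. Median scaling gave 1995 called genes in all against 4036. Without any single array the count was 3037 to 4253, and the members called lower were 7 to 8 sterol, 2 to 3 fatty acid and 3 to 4 regulator genes. With the replicate block, 5212 genes were called, with 9 sterol, 4 fatty acid and 4 regulator genes lower. The block brought Pmvk, Hsd17b7, Sc5d, Acly and Elovl5 past the threshold and changed no other member's call. When both arrays numbered 1 were left out, 8 sterol, 4 fatty acid and 4 regulator genes were lower. Motif counts in the 250 bases before the start alone were 22, 24 and 1 against 23, 25 and 1. Sc5d had no value under the stricter filter, and dim probes such as its own limit what can be read near background.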
